A study of Rosa rugosa with 9 samples.

Results

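The genes described here are the gibberellin, cytokinin, brassinosteroid and strigolactone genes of the rugosa rose (Rosa rugosa), read in root RNA from plants of genotype Zizhi grown with and without humic acid. They were chosen by the wording of the Swiss-Prot protein name that the deposited table gives each gene. The rule reads no expression value. However, it and the lists of other pathway genes below were chosen with earlier results of these data known. The rule found 105 of the 47983 genes in the table, of which 23524 carry a Swiss-Prot name. By hormone these were 39 gibberellin, 47 cytokinin, 8 brassinosteroid and 11 strigolactone genes. Genes are named after their closest Swiss-Prot protein, so a name is a sequence match and not a tested function in rose.

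The study asked how roots respond when part of the phosphate fertiliser is replaced with humic acid, the dark organic fraction of decayed plant matter. Control plants (CK) received 0.092 g of ammonium dihydrogen phosphate (NH4H2PO4), which counts as 100% of the phosphorus. HA1 plants received 0.0552 g of the salt, or 60% of the phosphorus, with 0.0368 g of humic acid in place of the other 40%. HA2 plants received 0.0368 g of the salt, or 40%, with 0.0552 g of humic acid in place of 60%. All were 1-year-old potted plants in greenhouse sand culture with 200 ml of Hoagland solution a week, sampled after 37 weeks, and about 1 g of tender roots was taken per plant. Phosphorus and ammonium fall and humic acid rises together from CK to HA2, so the agents cannot be told apart. The labels number 3 libraries per group and leave unsaid whether each came from its own plant. The p-values below are therefore against the scatter among libraries, which may be technical.

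Total counts ran from 33847262 to 42988605 per library. Root identity genes, such as those of the Casparian strip and root hairs, summed to 418 to 481 CPM (counts scaled to library size) in CK, 460 to 508 in HA1 and 443 to 615 in HA2. Genes of the chlorophyll-binding and photosystem proteins, markers of green tissue, summed to 114 to 228 CPM in CK, 84.4 to 118 in HA1 and 53.7 to 150 in HA2, and genes of dividing cells to 1299 to 1402, 1316 to 1646 and 1208 to 1738. Their part in the results below was not tested. HA2 replicate 3 stood apart from its group: its log2 CPM correlated with the other HA2 libraries at 0.920 and 0.926, against 0.969 between those. In RNA from bulk roots, fewer cells of a type and less RNA per cell cannot be told apart.

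Gibberellins are made active by 20-oxidases and 3-oxidases and inactivated by 2-oxidases, and they act when the GID1 receptor binds them and marks the growth-repressing DELLA proteins for destruction. Cytokinins are sensed by histidine kinases whose phosphate passes through carrier proteins to type-B response regulators, which switch genes on, while the induced type-A regulators damp the response. In roots cytokinins restrain the meristem and lateral roots. Brassinosteroids bind the kinase BRI1 with its partner BAK1 at the cell surface, and strigolactones, cut from carotenoids in roots, are both shoot-branching hormones and signals to mycorrhizal fungi.

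Levels between genes were compared as the authors' deposited FPKM, a value per length and per library size. Of the 105 genes, 15 had no read in any of the 9 libraries, and 64 had enough reads to be tested for differences. The 41 untested genes all had a mean FPKM of 0.357 or less: 18 gibberellin genes (12 of synthesis, 3 of inactivation and 3 gibberellin-regulated), 16 cytokinin genes (4 type-A, 4 type-B and all 3 type-C regulators, 2 dehydrogenases, and 1 each of hydroxylase, pseudo-response regulator and GATA factor), 2 brassinosteroid genes and 5 strigolactone genes. The GRAS protein gene Rru05G030210, named chitin-inducible gibberellin-responsive protein 1, had the highest mean FPKM of all, 519. The GID1 gibberellin receptors had 40.7 (GID1B, Rru06G043430) and 25.4 (GID1A, Rru03G005100). Among the 17 gibberellin synthesis genes the highest mean FPKM was 1.34 (20-oxidase 1, Rru01G050470), and 6 of them had no read at all. Of the 8 inactivating 2-oxidases 3 had a mean FPKM of at least 10, led by 2-beta-dioxygenase 1 (Rru05G021970) with 137.

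**Figure D1:**
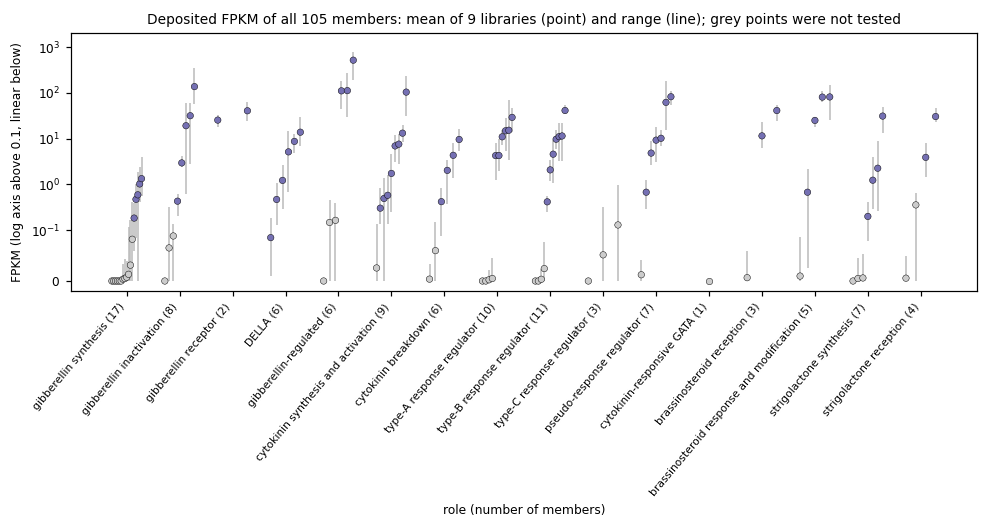
Deposited FPKM of each of the 105 hormone genes, grouped by role along the x axis, with the mean of 9 libraries as a point and the range over libraries as a line, on an axis that is logarithmic above 0.1 and linear below. Gibberellin synthesis genes stay at a mean of 1.34 or lower, while receptors, DELLA genes and response regulators reach far higher values; grey points are the 41 genes that were not tested.

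HA1 roots differed from CK roots in 18 of the 64 tested hormone genes, of which 6 were higher and 12 lower. The 6 higher genes were a pair of gibberellin 2-oxidases, a pair of DELLA repressors, 1 cytokinin dehydrogenase and BAK1. The 12 lower genes included 4 cytokinin response regulators, the circadian pseudo-response regulator APRR5, the strigolactone receptor D14 and a further DELLA gene. These calls use edgeR's quasi-likelihood test with a Benjamini-Hochberg adjusted p under 0.05 over all 25260 genes tested, and every adjusted p below is from this test unless DESeq2 is named. The called share was 28.1% of the members, beside 21.2% of all tested genes. Split by direction, 9.38% of members were called higher beside 10.9% of all genes, and 18.8% were called lower beside 10.3%. The median log2 fold change of members was -0.03, beside -0.02 over all genes, with 32 members above 0 and 32 below.

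By hormone, 6 of 21 tested gibberellin genes were called (4 higher, 2 lower), 8 of 31 cytokinin genes (1 higher, 7 lower), 3 of 6 brassinosteroid genes (1 higher, 2 lower) and 1 of 6 strigolactone genes (lower). In 27 members, 42.2%, the 3 HA1 libraries lay wholly above or wholly below the 3 CK libraries, beside 45% of all genes. Of the 64 tested members 8 lay above (22.7% of all genes did) and 19 below (22.3%). An unadjusted p under 0.05 was found for 27 of the 64 members, beside 38.4% of all genes. The calls lean on single libraries. Without CK replicate 1 no gene of the whole table passed, so 0 members were called, and without CK replicate 3 only 2 were (both lower). Without HA1 replicate 1, 2 or 3 the calls were 4 higher and 4 lower, 1 higher and 3 lower, and 3 higher and 5 lower. Leaving out CK replicate 2 instead gave 9 higher and 14 lower. DESeq2, an alternative test, gave 63 members an adjusted p. It called 9 of them higher and 14 lower, beside 30.5% of all genes (16% higher and 14.5% lower). In the authors' deposited table, which calls genes at a false discovery rate of 0.01 and a fold of 2, 7 members were higher and 11 lower.

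**Figure D2:**
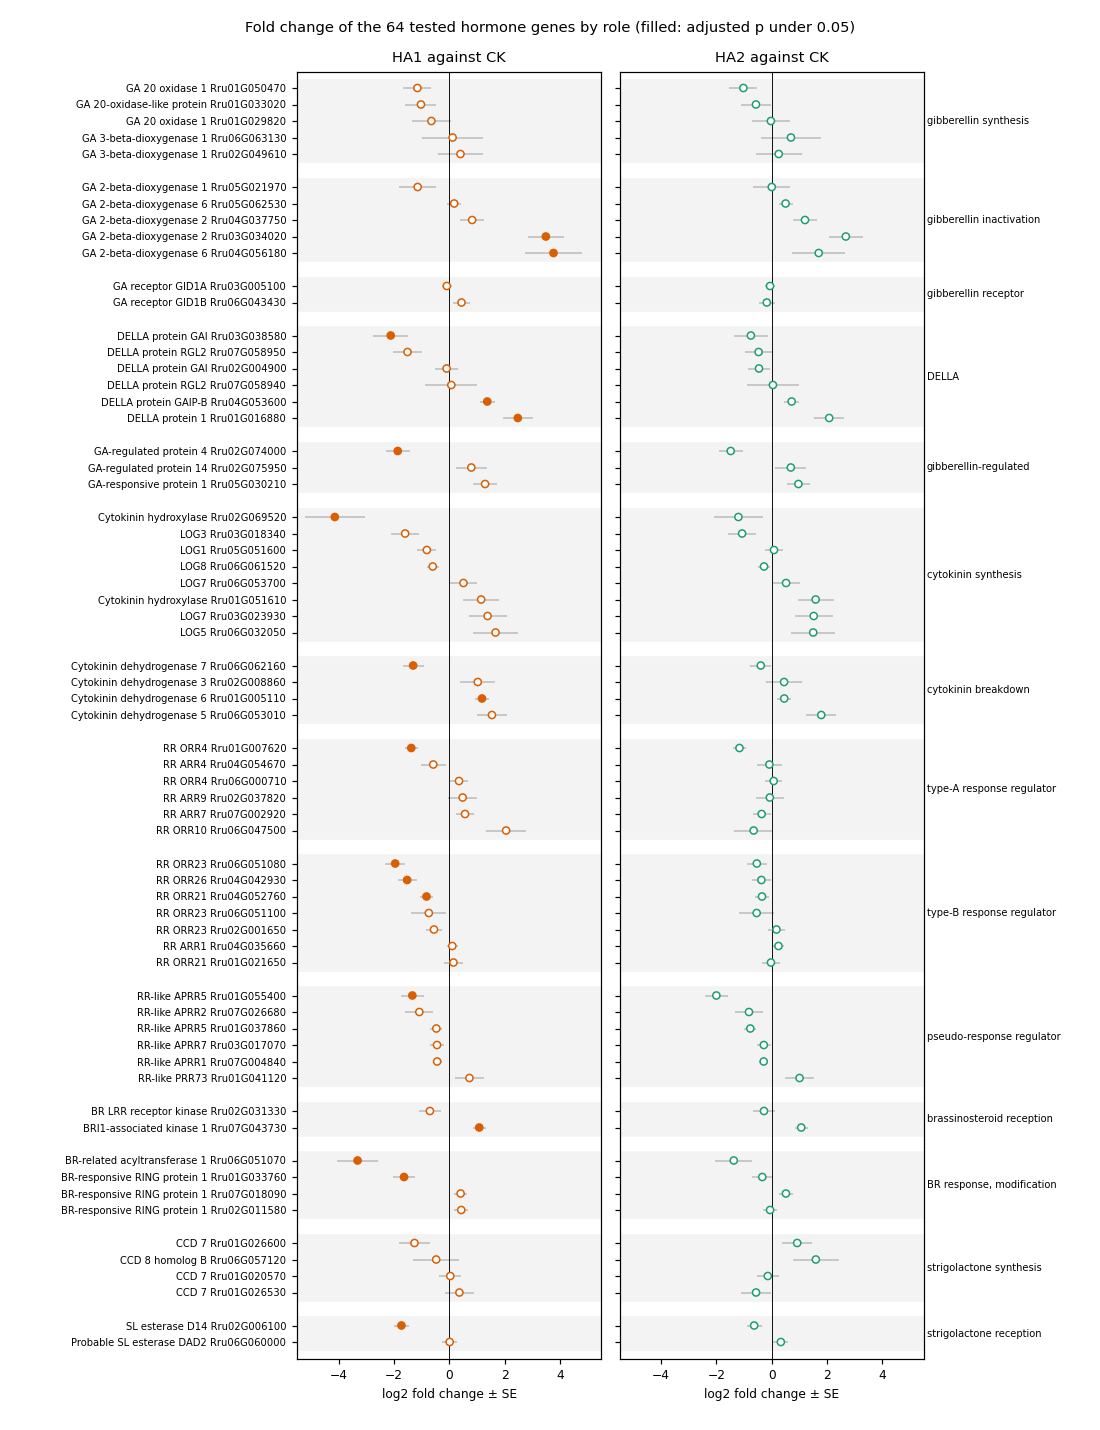
Log2 fold change (x axis) ± SE of each of the 64 tested hormone genes, by role, in HA1 against CK (left) and HA2 against CK (right), with filled points where the adjusted p was under 0.05. On the left 18 points are filled, 6 to the right of 0 and 12 to the left; on the right none are.

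Of the 5 tested genes that inactivate gibberellin, 2 rose in HA1, with the largest rises among the 6 hormone genes called higher. Gibberellin 2-beta-dioxygenase 2 (Rru03G034020), an enzyme that removes active gibberellins and their precursors, read 3.72, 17.8 and 3.9 CPM across CK, 86.7, 94.1 and 105 across HA1, and 76.4, 57 and 28.5 across HA2. Every HA1 and HA2 library lay above every CK library, and CK replicate 2 was the highest of the controls. The rise in HA1 was 11.3-fold (log2 fold change 3.49 ± 0.65 SE, adjusted p = 0.0130), and it passed in 7 of the 9 fits that each left out 1 library. Without CK replicate 2 the log2 fold change was 4.6.

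Gibberellin 2-beta-dioxygenase 6 (Rru04G056180), which the NR protein database matches to 2-beta-dioxygenase 8, read 1.04, 15.2 and 0.847 CPM across CK, 96.8, 61.3 and 73.2 across HA1, and 26.7, 19.1 and 9.09 across HA2. HA1 stood above both other groups, and HA2 overlapped CK only through CK replicate 2. Its rise in HA1 was 13.6-fold (log2 fold change 3.77 ± 1.03 SE, adjusted p = 0.0344), it passed in 3 of the 9 leave-one-out fits, and the log2 fold change was 6.30 without CK replicate 2. The most abundant of the inactivating genes, 2-beta-dioxygenase 1 (Rru05G021970), read 123, 573 and 163 CPM across CK, 109, 161 and 119.9 across HA1, and 105, 229 and 524 across HA2. Its groups overlapped widely, and the fold change did not pass (log2 fold change -1.14 ± 0.67 SE, adjusted p = 0.241). For the other 2 tested 2-oxidase genes, log2 fold changes were 0.83 (Rru04G037750) and 0.18 (Rru05G062530), neither past the test.

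None of the 5 tested gibberellin synthesis genes passed in HA1. DESeq2 also called 0, and 1 gene, 20-oxidase 1 (Rru01G050470), had an unadjusted p under 0.05. That gene read 6.54, 1.87 and 3.17 CPM across CK, 1.35, 2.26 and 1.64 across HA1, and 1.51, 1.22 and 2.95 across HA2 (log2 fold change -1.15 ± 0.51 SE, adjusted p = 0.128). The GID1A and GID1B receptors, which bind the hormone, had log2 fold changes of -0.09 ± 0.19 and 0.44 ± 0.29 (SE; adjusted p = 0.766 and 0.291) with overlapping groups.

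All 6 DELLA genes, encoding the repressors that gibberellin removes, were tested, and their directions differed: 2 rose, 1 fell and 3 did not pass. DELLA protein GAIP-B (Rru04G053600), matched in NR to the GAI1 protein of a hybrid rose, read 8.05, 14.6 and 8.49 CPM across CK, 24.3, 28 and 28.4 across HA1, and 17.1, 13.1 and 21 across HA2. HA1 lay above CK and HA2 without overlap, a 2.60-fold rise over CK (log2 fold change 1.38 ± 0.27 SE, adjusted p = 0.0145; 6 of 9 leave-one-out fits). DELLA protein 1 (Rru01G016880), matched in NR to RGL1, was scarce and read 0.764, 0.935 and 0.494 CPM across CK, 2.21, 3.97 and 6.09 across HA1, and 5.22, 2.5 and 1.53 across HA2. All HA1 and HA2 libraries exceeded all CK libraries, and the rise in HA1 was 5.58-fold (log2 fold change 2.48 ± 0.54 SE, adjusted p = 0.0191; 5 of 9 fits).

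DELLA protein GAI (Rru03G038580) went the other way and read 15.4, 7.57 and 23.3 CPM across CK, 1.3, 4.57 and 4.85 across HA1, and 4.7, 6.49 and 16.2 across HA2. HA1 was below CK in every library, a 4.33-fold fall (log2 fold change -2.11 ± 0.64 SE, adjusted p = 0.0454; 3 of 9 fits), while HA2 overlapped both. The other gene named GAI (Rru02G004900), the most abundant DELLA gene with a mean FPKM of 13.8, had a log2 fold change of -0.09 ± 0.40 (SE; adjusted p = 0.885). RGL2 (Rru07G058950) read 1.44, 0.964 and 2.0 CPM across CK, 0.685, 0.512 and 0.344 across HA1, and 0.551, 0.777 and 1.83 across HA2, lower in every HA1 than in every CK library, and did not pass (log2 fold change -1.51 ± 0.53 SE, adjusted p = 0.0688; DESeq2 adjusted p = 0.0332). Rru07G058950 was also called lower in HA1 than in CK in the authors' deposited table. The second gene named RGL2 (Rru07G058940) was near the detection limit at a mean FPKM of 0.0853. Reads shared between such close copies may have been split between them, since no source used here says how such reads were counted.

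Genes named for their response to gibberellin also differed among themselves. Gibberellin-regulated protein 4 (Rru02G074000), a small cysteine-rich peptide of the family first described for gibberellin induction in tomato and Arabidopsis, read 95.7, 178 and 127 CPM across CK, 49.6, 28.5 and 32.4 across HA1, and 21.7, 48.6 and 72.7 across HA2. HA1 and HA2 both lay below CK in every library, and the fall in HA1 was 3.63-fold (log2 fold change -1.86 ± 0.43 SE, adjusted p = 0.0222; 5 of 9 fits). Gibberellin-regulated protein 14 (Rru02G075950), about as abundant with a mean FPKM of 111 against 112, had a log2 fold change of 0.80 ± 0.56 (SE; adjusted p = 0.320). The GRAS gene Rru05G030210, whose rice namesake responds to chitin and gibberellin and which NR matches to scarecrow-like protein 21, read 695, 1441 and 452 CPM across CK, 1405, 2448 and 2507 across HA1, and 1798, 1789 and 1451 across HA2. CK replicate 2 lay within the HA1 range and the edgeR test was not passed (log2 fold change 1.30 ± 0.43 SE, adjusted p = 0.0586), while DESeq2 called it higher.

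Other genes of the gibberellin pathway, 11 by name and 10 tested, gave 1 higher and 1 lower call in HA1, near the 21.2% called among all genes. The SPINDLY gene (Rru03G023270), a sugar transferase that restrains gibberellin signalling in Arabidopsis, rose with log2 fold change 1.40 ± 0.33 SE, adjusted p = 0.0225. Scarecrow-like protein 3 (Rru01G005390), which in Arabidopsis opposes DELLA proteins in the root, fell with log2 fold change -1.79 ± 0.43 SE, adjusted p = 0.0233. Ent-kaurenoic acid oxidase 1 (Rru01G004210), an early step of synthesis, read 0.297, 0.170 and 0.188 CPM across CK, 0.639, 1.05 and 0.459 across HA1, and 3.94, 6.38 and 1.58 across HA2. It was highest in HA2 in all 3 libraries and passed in neither comparison with CK (log2 fold change 1.68 ± 0.57 SE, adjusted p = 0.0648 for HA1, and log2 fold change 4.15 ± 0.60 SE, adjusted p = 0.132 for HA2).

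**Figure D3:**
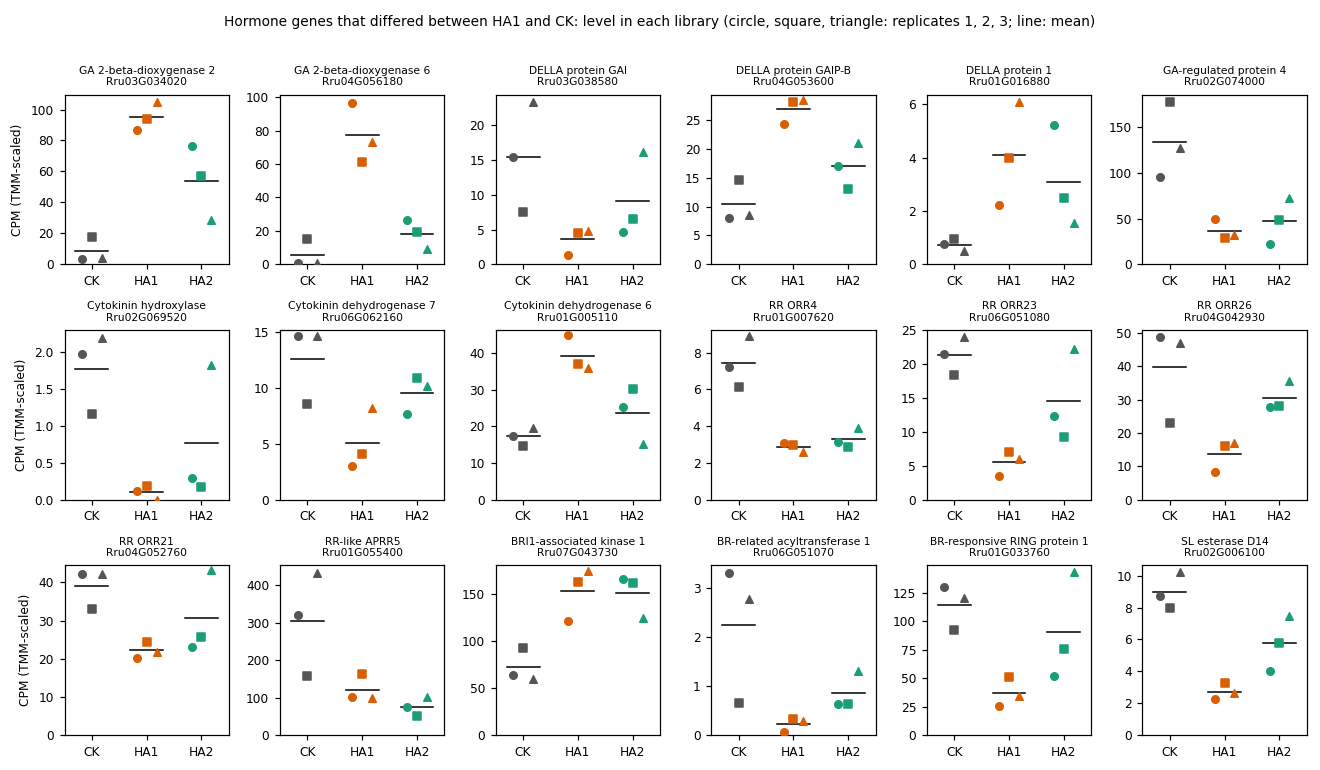
TMM-scaled CPM (y axis, starting at 0) of the 18 hormone genes that differed between HA1 and CK, with each library as a point, replicates 1 to 3 as circle, square and triangle, and the group mean as a line. Gibberellin 2-beta-dioxygenase 2 reaches 86.7 to 104.6 in HA1 against 3.72 to 17.8 in CK, and HA2 replicate 3 lies within the CK range in 8 of the 18 panels.

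Cytokinin genes were mostly lower in HA1 where they passed: 7 of the 8 called. The 8 were 25.8% of the 31 tested, beside 21.2% of all genes. By direction 3.23% were called higher beside 10.9%, and 22.6% lower beside 10.3%. Of the 31, 14 had a log2 fold change above 0 and 17 below. Response regulators accounted for 4 of the 7, APRR5, cytokinin dehydrogenase 7 and a cytokinin hydroxylase for the others. Type-B regulators are the transcription factors that carry out the cytokinin response, and 3 of 7 tested fell. ORR23 (Rru06G051080), matched in NR to ARR12, read 21.4, 18.4 and 24 CPM across CK, 3.42, 7.1 and 6.0 across HA1, and 12.3, 9.26 and 22.2 across HA2. HA1 lay below both other groups in every library, and HA2 replicate 3 was within the CK range. The fall from CK to HA1 was 3.87-fold (log2 fold change -1.95 ± 0.37 SE, adjusted p = 0.0136; 7 of 9 leave-one-out fits).

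ORR26 (Rru04G042930), matched in NR to ARR11, read 48.8, 23.1 and 47 CPM across CK, 8.33, 16.1 and 17.1 across HA1, and 27.9, 28.1 and 35.7 across HA2. HA1 was again lowest without overlap, 2.87-fold below CK (log2 fold change -1.52 ± 0.35 SE, adjusted p = 0.0209; 5 of 9 fits). ORR21 (Rru04G052760) read 42.3, 33.1 and 42.1 CPM across CK, 20.2, 24.5 and 21.8 across HA1, and 23, 25.6 and 43.3 across HA2, with HA1 below CK and HA2 replicate 3 above it. Its fall was the smallest of those called, 1.76-fold (log2 fold change -0.82 ± 0.25 SE, adjusted p = 0.0457), and it passed in 3 of 9 leave-one-out fits and 3 of 5 other edgeR settings. The most abundant type-B gene, ARR1 (Rru04G035660), with a mean FPKM of 41.2, read 124, 136 and 115 CPM across CK, 115, 149 and 141 across HA1, and 132, 127 and 183 across HA2. Its groups overlapped and the log2 fold change was 0.11 ± 0.20 (SE; adjusted p = 0.709). Another ORR23 copy (Rru02G001650) was lower in every HA1 than in every CK library and did not pass (log2 fold change -0.55 ± 0.30 SE, adjusted p = 0.211).

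Type-A regulators, the feedback brakes that cytokinin induces, showed 1 fall among 6 tested. ORR4 (Rru01G007620), matched in NR to ARR9, read 7.24, 6.15 and 8.91 CPM across CK, 3.06, 2.98 and 2.58 across HA1, and 3.13, 2.86 and 3.92 across HA2. Both humic acid groups were below CK in every library. The fall in HA1 was 2.59-fold (log2 fold change -1.37 ± 0.23 SE, adjusted p = 0.0112), and it passed in 8 of 9 leave-one-out fits, the exception being the one without CK replicate 1. The second gene named ORR4 (Rru06G000710) had a log2 fold change of 0.35 ± 0.31 (SE; adjusted p = 0.431). ORR10 (Rru06G047500) read 11, 17.1 and 3.67 CPM across CK, 90.1, 27.3 and 14.4 across HA1, and 9.48, 5.49 and 5.14 across HA2, with HA1 replicate 1 far above all other libraries. It did not pass in HA1 (log2 fold change 2.06 ± 0.72 SE, adjusted p = 0.0685; DESeq2 adjusted p = 0.00998). ARR7 (Rru07G002920), the most abundant of the type with a mean FPKM of 29.2, had a log2 fold change of 0.57 ± 0.32 (SE; adjusted p = 0.220). No type-C regulator was tested: all 3 had a mean FPKM of 0.130 or less.

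Pseudo-response regulators resemble these proteins by sequence and most belong to the circadian clock rather than to cytokinin signalling; KEGG lists APRR2 with the type-B regulators. APRR5 (Rru01G055400) read 322, 157 and 434 CPM across CK, 100.5, 163 and 99.1 across HA1, and 74.6, 50.2 and 103 across HA2. CK replicate 2 lay within the HA1 range, and the fall passed narrowly (log2 fold change -1.33 ± 0.41 SE, adjusted p = 0.0467; 2 of 9 leave-one-out fits and 4 of 5 other edgeR settings). HA2 was lower than CK in every library. The other 5 tested genes of the type, APRR1, APRR2, APRR7, PRR73 and a second APRR5, had log2 fold changes from -1.08 to 0.73 and did not pass. The labels give no hour of sampling.

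Genes that make, free or destroy cytokinin moved in mixed directions. Cytokinin hydroxylase (Rru02G069520), whose Arabidopsis counterparts make trans-zeatin, read 1.97, 1.16 and 2.19 CPM across CK, 0.114, 0.181 and 0 across HA1, and 0.290, 0.166 and 1.83 across HA2. HA1 was below CK in every library, with 0 reads in HA1 replicate 3, and the fall was 17.6-fold (log2 fold change -4.13 ± 1.08 SE, adjusted p = 0.0297; 4 of 9 fits; log2 fold change -4.79 without HA1 replicate 2 and -3.58 without HA1 replicate 3). HA2 replicate 3 alone of the humic acid libraries was at the CK level. The far more abundant Rru01G051610 carries the same name, but its KEGG annotation is a fatty acid omega-monooxygenase. It read 180.3, 108 and 55.3 CPM across CK, 114, 376 and 274 across HA1, and 371, 549 and 109 across HA2, with overlapping groups (log2 fold change 1.16 ± 0.64 SE, adjusted p = 0.218). All 6 LOG genes, which release the active cytokinin base, were tested and none passed by edgeR. In HA1 their log2 fold changes ran from -1.59 to 1.68, with 3 at an unadjusted p under 0.05. DESeq2 called 1 lower, LOG3 (Rru03G018340), with DESeq2 adjusted p = 0.0245. The edgeR values for LOG3 were log2 fold change -1.59 ± 0.51 SE and adjusted p = 0.0525. LOG5 (Rru06G032050) went the other way (log2 fold change 1.68 ± 0.80 SE, adjusted p = 0.158) and was called higher in the authors' deposited table.

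Cytokinin dehydrogenases break the hormone down, and by edgeR 1 of 4 tested rose while 1 fell. Cytokinin dehydrogenase 6 (Rru01G005110) read 17.4, 14.7 and 19.6 CPM across CK, 44.8, 37 and 35.9 across HA1, and 25.2, 30.2 and 15.3 across HA2. HA1 exceeded CK and HA2 in every library, 2.27-fold over CK (log2 fold change 1.19 ± 0.25 SE, adjusted p = 0.0177; 5 of 9 fits). Cytokinin dehydrogenase 7 (Rru06G062160) read 14.6, 8.59 and 14.6 CPM across CK, 3.01, 4.09 and 8.24 across HA1, and 7.63, 10.9 and 10.1 across HA2. It fell 2.47-fold in HA1 (log2 fold change -1.30 ± 0.38 SE, adjusted p = 0.0414; 3 of 9 leave-one-out fits and 4 of 5 other edgeR settings), with HA2 overlapping both groups. Cytokinin dehydrogenase 5 (Rru06G053010) was scarce, with a mean FPKM of 0.420, and read 0.446, 0.227 and 0.682 CPM across CK, 0.662, 1.59 and 1.75 across HA1, and 2.23, 0.887 and 1.61 across HA2 (log2 fold change 1.54 ± 0.55 SE, adjusted p = 0.0729 in HA1, and log2 fold change 1.79 ± 0.55 SE, adjusted p = 0.148 in HA2). DESeq2 called this gene higher in both groups (DESeq2 adjusted p = 0.0323 in HA1 and 0.0304 in HA2).

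Other genes of the cytokinin pathway, found by name and not among the members, were called in 11 of 29 tested cases in HA1, 37.9% beside 21.2% of all genes. Of these, 10 were lower and 1 higher. The cytokinin receptors, histidine kinases 2, 3 and 4, all fell, with log2 fold changes of -0.85, -1.02 and -1.01 (adjusted p = 0.0402, 0.0311 and 0.0441). Histidine kinase 3 (Rru04G041280), the most abundant of the 3 with a mean FPKM of 57.4, read 376, 329 and 348 CPM across CK, 129, 206 and 184 across HA1, and 238, 272 and 429 across HA2, and HA1 was lowest without overlap. Upstream of them, 2 of 3 tested adenylate isopentenyltransferases, which begin cytokinin synthesis, fell: IPT3 (Rru06G042660, log2 fold change -2.78 ± 0.57 SE, adjusted p = 0.0159) and IPT5 (Rru04G030720, log2 fold change -4.42 ± 0.89 SE, adjusted p = 0.0156). IPT3 read 10.3, 3.88 and 6.91 CPM across CK, 1.37, 0.993 and 0.689 across HA1, and 1.1, 3.0 and 4.63 across HA2. Downstream, 2 of 5 tested phosphotransfer proteins fell, both named histidine-containing phosphotransfer protein 1 (Rru03G005130 with log2 fold change -1.32 and Rru06G043370 with -1.12; adjusted p = 0.00973 and 0.0232). Histidine kinase 1 (Rru02G013980), an osmosensor in Arabidopsis rather than a cytokinin receptor, fell as well (log2 fold change -2.27 ± 0.53 SE, adjusted p = 0.0224). The gene that was higher was adenine phosphoribosyltransferase 1 (Rru06G059920, log2 fold change 1.90 ± 0.46 SE, adjusted p = 0.0244), which recycles adenine. Across the steps from isopentenyltransferase to type-A regulator, each gene called by edgeR fell except cytokinin dehydrogenase 6. These steps leave out adenine phosphoribosyltransferase 1 and histidine kinase 1, and the falls include cytokinin dehydrogenase 7, which breaks the hormone down. DESeq2 also called cytokinin dehydrogenase 5 and ORR10 higher in HA1 (DESeq2 adjusted p = 0.0323 and 0.00998).

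**Figure D4:**
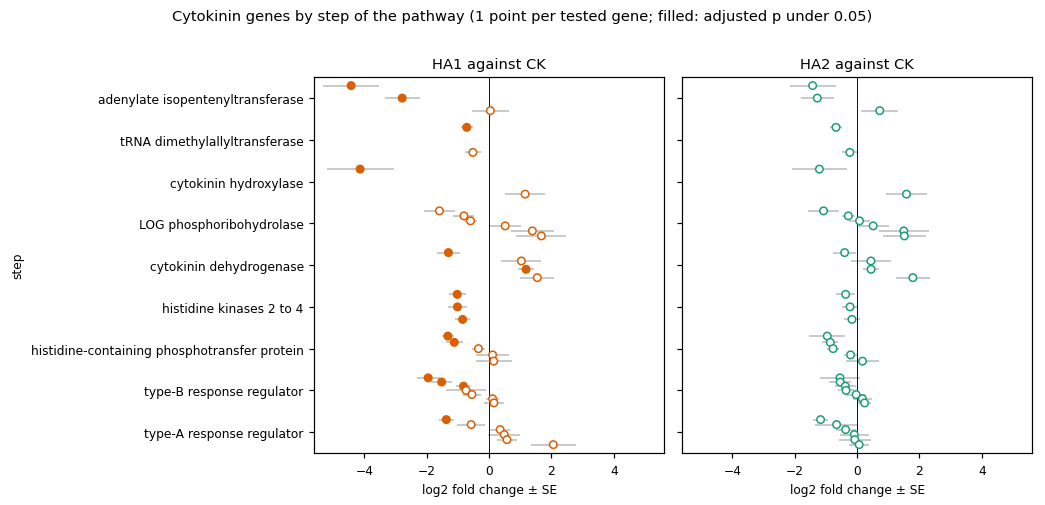
Log2 fold change (x axis) ± SE of every tested gene at each step of cytokinin synthesis, breakdown, reception and relay (y axis), in HA1 against CK (left) and HA2 against CK (right), with filled points where the adjusted p was under 0.05. In HA1 the filled points lie left of 0 at every step that has one, apart from cytokinin dehydrogenase 6 at 1.19; in HA2 no point is filled.

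Of the brassinosteroid genes, BAK1 rose in HA1 and 2 named for brassinosteroid response or modification fell. BAK1 (Rru07G043730), the co-receptor that pairs with BRI1 and also with immune receptors in Arabidopsis, read 64, 92 and 59.4 CPM across CK, 121, 162 and 174 across HA1, and 165, 161 and 124 across HA2. All 6 humic acid libraries exceeded all 3 CK libraries. The rise in HA1 was 2.12-fold (log2 fold change 1.09 ± 0.24 SE, adjusted p = 0.0186; 5 of 9 fits), and the HA2 value was near it (log2 fold change 1.06 ± 0.24 SE, adjusted p = 0.132). The receptor kinase gene Rru02G031330, annotated as BRI1 in KEGG, had a log2 fold change of -0.70 ± 0.40 in HA1 (SE; adjusted p = 0.231).

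Brassinosteroid-responsive RING protein 1, a ubiquitin ligase whose Arabidopsis transcript falls under brassinosteroid, was represented by 4 genes, 3 of them tested. Rru01G033760 read 130.3, 92.4 and 120.3 CPM across CK, 25.5, 50.7 and 34.6 across HA1, and 51.7, 75.2 and 143 across HA2. HA1 was lowest without overlap, 3.10-fold below CK (log2 fold change -1.63 ± 0.39 SE, adjusted p = 0.0235; 4 of 9 fits), and HA2 replicate 3 was the highest library of all. The other tested copies, Rru02G011580 and Rru07G018090, had log2 fold changes of 0.44 ± 0.25 and 0.41 ± 0.24 (SE; adjusted p = 0.229 and 0.238). Brassinosteroid-related acyltransferase 1 (Rru06G051070), whose Arabidopsis namesake modifies brassinosteroids and which KEGG annotates as an omega-hydroxypalmitate feruloyl transferase, read 3.31, 0.652 and 2.78 CPM across CK, 0.0685, 0.331 and 0.287 across HA1, and 0.638, 0.638 and 1.32 across HA2. It was low throughout, with CK replicate 2 near the humic acid libraries, and fell 9.92-fold in HA1 (log2 fold change -3.31 ± 0.74 SE, adjusted p = 0.0203; 4 of 9 fits).

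Among 39 tested other genes of the brassinosteroid pathway, 4 were higher and 6 lower in HA1. These were 25.6% of the list, near the 21.2% of all genes called. The falls included BRI1-like 1 (Rru05G066390, log2 fold change -1.77 ± 0.34 SE, adjusted p = 0.0145) and BRI1-like 2 (Rru07G035060, log2 fold change -3.49 ± 0.62 SE, adjusted p = 0.0123), relatives of the receptor, and the inhibitor BKI1 (Rru06G058450, log2 fold change -2.88 ± 0.83 SE, adjusted p = 0.0396). BSK6 (Rru03G014010), a signalling kinase, fell with log2 fold change -1.34, whereas BSK1 (Rru06G055080) rose with 1.17 (adjusted p = 0.00982 and 0.0259). Shaggy-related protein kinase eta (Rru05G009720), which as BIN2 holds back the response in Arabidopsis, rose with 0.92, and the transcription factor gene BES1/BZR1 homolog 2 (Rru02G017660) with 0.90 (adjusted p = 0.0244 and 0.0195).

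Of the 2 tested strigolactone receptor genes 1 fell in HA1, D14, whose product cleaves the hormone as it binds it. D14 (Rru02G006100) read 8.73, 7.97 and 10.3 CPM across CK, 2.26, 3.28 and 2.61 across HA1, and 4.0, 5.8 and 7.5 across HA2. HA1 was below HA2, and HA2 below CK, with no overlap between any of the 3 groups. The fall in HA1 was 3.31-fold and had the lowest adjusted p of any member (log2 fold change -1.73 ± 0.28 SE, adjusted p = 0.0103). It passed in 8 of 9 fits, the exception being without CK replicate 1. In HA2 the fall did not pass (log2 fold change -0.64 ± 0.27 SE, adjusted p = 0.225). The related DAD2 (Rru06G060000), named for the petunia receptor, was more abundant with a mean FPKM of 30.4 against 3.90. It had a log2 fold change of 0.02 ± 0.27 (SE; adjusted p = 0.970).

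No tested strigolactone synthesis gene passed in any comparison by edgeR, among 4 tested of 7. Carotenoid cleavage dioxygenase 7 (CCD7) and CCD8 make the strigolactone precursor in sequence, and the table holds 6 genes named CCD7. The most abundant, Rru01G020570, had a mean FPKM of 31.1 and a log2 fold change of 0.04 ± 0.39 in HA1 (SE; adjusted p = 0.952). The CCD7 copy Rru01G026600 read 2.12, 2.07 and 2.92 CPM across CK, 0.936, 1.32 and 0.718 across HA1, and 3.13, 1.64 and 8.65 across HA2. Its HA1 libraries lay below both other groups (log2 fold change -1.26 ± 0.56 SE, adjusted p = 0.133). That copy was called lower in HA1 than in CK in the authors' deposited table. CCD8 homolog B (Rru06G057120) read 1.27, 5.3 and 1.86 CPM across CK, 3.24, 2.2 and 0.603 across HA1, and 3.48, 3.83 and 18 across HA2. HA2 replicate 3 was the highest library for both genes. Close copies of CCD7 lie under neighbouring gene numbers, and their counts are uncertain where reads could match more than one.

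Other strigolactone pathway genes were called in 6 of 10 tested cases in HA1, 3 higher and 3 lower, beside 21.2% of all genes called (10.9% higher and 10.3% lower). The cytochrome P450 gene Rru06G061460, named for Arabidopsis MAX1, which follows CCD8 in synthesis, rose and read 8.3, 9.69 and 9.36 CPM across CK, 25.5, 22.8 and 15.6 across HA1, and 14, 15.3 and 17.2 across HA2 (log2 fold change 1.23 ± 0.21 SE, adjusted p = 0.0110). MAX2 homolog A (Rru02G042510), the F-box partner of D14, rose as well (log2 fold change 1.37 ± 0.38 SE, adjusted p = 0.0347), as did SUPPRESSOR OF MAX2 1 (Rru04G016410, log2 fold change 1.05 ± 0.25 SE, adjusted p = 0.0228), a repressor in the related karrikin pathway. SMAX1-LIKE 7 (Rru05G062270), the Arabidopsis repressor that D14 targets, fell and read 62, 32.3 and 73.6 CPM across CK, 8.03, 13.6 and 21.1 across HA1, and 25, 29.5 and 38.5 across HA2 (log2 fold change -1.98 ± 0.40 SE, adjusted p = 0.0159). SMAX1-LIKE 3 (Rru03G024080) and 4 (Rru04G012370), which act in phloem formation in Arabidopsis, fell with log2 fold changes of -3.0 and -2.66 (adjusted p = 0.040 and 0.0103). The beta-carotene isomerase gene D27 (Rru06G041050), the first step of synthesis, read 0.170, 1.25 and 0.141 CPM across CK, 2.08, 2.5 and 1.64 across HA1, and 19.4, 7.27 and 2.17 across HA2, highest in HA2 replicate 1, and did not pass (log2 fold change 2.03 ± 0.93 SE, adjusted p = 0.143 in HA1, and log2 fold change 4.24 ± 0.99 SE, adjusted p = 0.132 in HA2).

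Genes that plants switch on in roots colonised by mycorrhizal fungi were read beside the strigolactone genes. The 9 genes named PT4, RAM2, STR or STR2 summed to 2.27, 1.81 and 1.51 CPM in CK, to 68.7, 22.2 and 4.65 in HA1, and to 36.5, 3.85 and 85.5 in HA2. HA2 replicate 3, the highest library for CCD8 and for the CCD7 copy above, was also the highest here. The match did not extend to HA1 replicate 1, the next highest here. That library lay below every CK library for the CCD7 copy and within the CK range for CCD8. Nor did the match extend to D27, which was highest in HA2 replicate 1 and lowest of the HA2 libraries in replicate 3. Leaving out HA2 replicate 3 moved the HA2 log2 fold change against CK of the most abundant CCD7 gene, Rru01G020570, from -0.15 to -0.02. For the CCD7 gene Rru01G026530 that value moved from -0.57 to -0.74. The defining phosphate transporter PT4 gene Rru01G053270 had 0 reads in CK replicates 2 and 3. In HA1, 3 of the 8 tested genes of this list were called higher, beside 10.9% of all genes, and their part in the hormone gene results was not tested.

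HA2, with more humic acid and less phosphate, gave 0 called members against CK with edgeR, beside 0.00396% of all genes, which is 1 gene. At an unadjusted p under 0.05 there were 13 of 64 tested members, beside 20.7% of all genes. Among 63 members with an adjusted p, DESeq2 called 4 higher and 4 lower, beside 9.18% of all genes (6.81% higher and 2.37% lower). The 4 higher by DESeq2 were gibberellin 2-beta-dioxygenase 2 (Rru03G034020), DELLA protein 1, BAK1 and cytokinin dehydrogenase 5, and the 4 lower were ORR4 (Rru01G007620), gibberellin-regulated protein 4 and both APRR5 genes. In 13 members, 20.3%, the HA2 libraries did not overlap CK, beside 21.8% of all genes. Of the 64 members 8 lay above CK and 5 below, beside 11% and 10.8% of all genes. Both treated groups share the CK libraries, so their changes are not independent. In HA2 against CK 2 members were higher (2-beta-dioxygenase 2 and BAK1) in the authors' deposited table and 2 lower (ORR4 and APRR5, Rru01G055400).

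HA2 replicate 3 weighed on these counts. Without it, edgeR called 3 members higher and 3 lower, beside 7.11% of all genes. These were gibberellin 2-beta-dioxygenase 2 (log2 fold change 2.98), DELLA protein 1 (2.40) and BAK1 (1.18), all higher, and APRR5 (-2.29), gibberellin-regulated protein 4 (-1.93) and ORR4 (-1.31), all lower, with adjusted p from 0.0258 to 0.0392. Without CK replicate 2 instead, 6 were higher and 3 lower. DESeq2 without HA2 replicate 3 called 6 higher and 12 lower, beside 18.4% of all genes.

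For the 18 genes called in HA1, the HA2 libraries took different positions. HA2 replicate 1 lay within the CK range for 1 of them, replicate 2 for 3 and replicate 3 for 8. Over all 5355 genes called in HA1, the shares within the CK range were 9.15%, 16.5% and 39.6% for the same libraries. All 3 HA2 libraries lay beyond the CK range on the HA1 side for 7 of the 18, 38.9%, beside 45.5% of all called genes. These 7 were 2-beta-dioxygenase 2, DELLA protein 1, gibberellin-regulated protein 4, ORR4, APRR5, BAK1 and D14. The HA1 and HA2 levels themselves lay apart in several of the 18. Picking genes by HA1 against CK favours such separation, and its share among the 5355 genes was not computed. Between HA2 and HA1, edgeR called 0 of all genes. For 2-beta-dioxygenases 2 and 6, GAIP-B and cytokinin dehydrogenase 6 the HA1 libraries were above all HA2 libraries, and for ORR23, ORR26, the RING protein gene, brassinosteroid-related acyltransferase 1 and D14 below them.

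**Figure D5:**
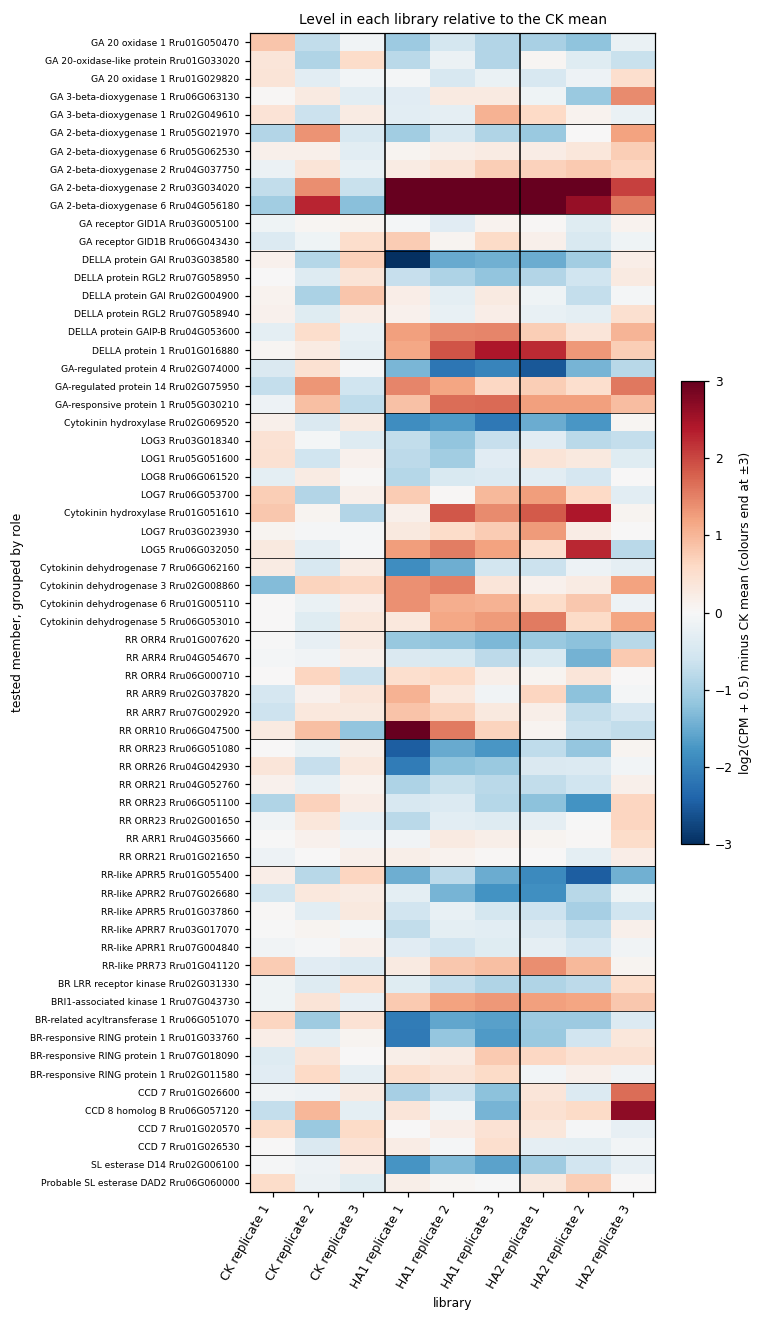
Level of each of the 64 tested hormone genes (rows, by role) in each of the 9 libraries (columns), as log2(CPM + 0.5) minus the CK mean, with red above and blue below and colours ending at ±3. Gibberellin 2-beta-dioxygenase 2 and 6 are the reddest rows in HA1, and CCD8 homolog B is reddest in HA2 replicate 3, at 18 CPM.

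Between HA2 and HA1 edgeR called 0 members and 0 of all genes (0%). An unadjusted p under 0.05 was found for 15 of 64 tested members, beside 16.1% of all genes. Among 60 members with an adjusted p, DESeq2 called 5 higher in HA2 and 1 lower (ORR10), beside 4.2% of all genes (1.91% higher and 2.29% lower). The 5 were CCD7 Rru01G026600, the RING protein gene Rru01G033760, D14, ORR26 and ORR23 Rru06G051080. Without HA2 replicate 3 DESeq2 called 0 higher and 1 lower. In 17 members, 26.6%, the groups did not overlap, beside 24.3% of all genes. Of the 64 members HA2 was the higher without overlap in 8 and the lower in 9, beside 10.1% and 14.1% of all genes. Gibberellin 2-beta-dioxygenase 6 and ORR10 were lower in HA2 than in HA1 in the authors' deposited table, and no member was higher.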

How the data were processed

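Per the labels' protocols, poly(A) RNA of 9 root libraries (3 groups of 3) was read as 150-base pairs by Illumina sequencing. The deposited table gives read counts and FPKM per gene and library, made by the authors, with their differential tests and Swiss-Prot, NR and KEGG names. Not given in the sources used here were the aligner, genome build, strand setting and treatment of shared reads. No sequences or coordinates were used.

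Members were taken by Swiss-Prot wording. Members, roles and pathway lists were chosen with earlier results of these data known. Named are members past the threshold, the 3 lowest p-values per role and comparison, and the most abundant member per role.

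Counts of all 9 libraries were fitted together in edgeR 4.0.16 (R 4.3.3), with filterByExpr, TMM scaling, group means and no block, and glmQLFTest, adjusted by Benjamini-Hochberg over 25260 genes. CPM are TMM-scaled, and FPKM were used for levels between genes. SE was taken as the size of the log2 fold change divided by the root of the F statistic. DESeq2 1.42.0 was the alternative test. Python 3.11.15, pandas 2.3.3 and matplotlib 3.10.9 made summaries and figures. Other alternatives were RLE size factors, no count filter, at least 1 CPM in 3 libraries, only the 6 libraries compared, a replicate block, a fold limit, total-count scaling and leaving out each library. DESeq2 without HA2 replicate 3, and a replicate block within the 6 libraries compared, were added after seeing the data. Deviations from the group means of same-numbered libraries correlated at 0.112 to 0.317 in all 3 pairs of CK with HA2, and at -0.297 to 0.0678 in the other 6 pairs. The limit of 0.1 in every pair was met by CK with HA2 and by neither group with HA1. Only 3 of 9 libraries matched best with one of their own number, so meeting the limit does not establish a pairing. The labels name nothing that the numbers share.

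Tested on simulated data with 200 changed genes among 24728 for HA1 against CK, the edgeR step recovered 3% of 2-fold and 31% of 4-fold changes, with 1 false call of 35. The data held far more called genes in this comparison, 5355 of 25260, which makes the adjusted threshold less strict than in the simulation. The recovered shares therefore do not measure how many real changes were found here. A gene that did not pass may still differ.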

Additional observations from a re-analysis of the deposited data

Results flagged for a closer look

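The type-A response regulator ORR10 (Rru06G047500) moved in opposite directions in the humic acid groups by point estimate, with a log2 fold change against CK of 2.06 in HA1 and -0.66 in HA2. The difference between them, tested directly as HA2 against HA1, was -2.71 on the log2 scale. It did not pass edgeR's quasi-likelihood test (adjusted p = 0.190) and passed DESeq2 (adjusted p = 0.00623). All 3 HA2 libraries lay below all 3 HA1 libraries, and HA1 replicate 1 was the highest of the 9.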

How the results depend on the processing

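No result changed direction under the alternatives run where it had been called. Leaving out 1 library in turn moved the member calls in HA1 against CK between 0 and 9 higher and 0 and 14 lower, and those in HA2 against CK between 0 and 6 higher and 0 and 3 lower. In HA2 against HA1 they stayed at 0. For the other gibberellin, cytokinin, brassinosteroid and strigolactone pathway genes the same ranges were 0 to 4, 0 to 14, 0 to 13 and 0 to 8 in HA1 against CK, 0 to 4, 0 to 3, 0 to 1 and 0 to 2 in HA2 against CK, and 0 in HA2 against HA1. DESeq2 called 5 other gibberellin genes in HA1 against CK, and a fit of only the 6 libraries 4, against 2. In HA2 against CK DESeq2 called 4 members higher and 4 lower, with 4, 6, 1 and 3 other genes of the gibberellin, cytokinin, brassinosteroid and strigolactone pathways. In HA2 against HA1 it called 5 members higher and 1 lower, with 2, 2, 3 and 0 other genes. DESeq2 without HA2 replicate 3, chosen after seeing the data, called 10 members higher, 5 other gibberellin and 16 other brassinosteroid genes in HA1 against CK. In HA2 against CK it called 6 members higher and 12 lower, with 6, 11, 8 and 3 other genes, and in HA2 against HA1 1 member lower, with 2, 1, 1 and 1 other genes. The replicate block gave 8 members higher and 10 lower in HA1 against CK and 0 in the other comparisons. Within the 6 libraries of CK and HA2, which met the limit for pairing, the block changed no call of a member or other pathway gene in HA2 against CK. For 3 of 9 libraries the best match was one of their own number, about what unrelated numbers would give. Scaling by total count moved the median log2 fold change of members to -0.34 in HA1 against CK, -0.35 in HA2 against CK and 0.17 in HA2 against HA1, and that of all genes to -0.31, -0.33 and 0.02. Where other tools or libraries changed a count, the cause was not tested. Depth limits the scarce genes: 3 counts correspond to 0.0637 to 0.0903 CPM, a floor that covers counting error only.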
